A study of Mus musculus with 70 samples.

Results

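Group 2 innate lymphoid cell progenitors (ILC2P) were set against common lymphoid progenitors (CLP), the latest and the earliest population of a mouse bone marrow series that followed the development of innate lymphoid cells. The members were chosen by label, as all wild-type libraries of either population: 8 of ILC2P and 8 of CLP, made from 18 of the 70 samples, with 2 technical repeats added to CLP replicate 2. All 16 libraries came from wild-type animals with no treatment named, and neither strain nor age is given in the labels. Other populations and genotypes of the series, Id2-/- and TCF7-/- mice among them, entered the same model of 47 libraries, where they shared in the filter on low counts and in the estimate of the spread, and the wild-type populations between the 2 ends are described by their levels.

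Each library held 100 cells sorted by flow cytometry from flushed bone marrow straight into lysis buffer. The libraries were made by CEL-seq, in which polyadenylated RNA is amplified linearly and only the stretch next to a transcript's 3′ end is read. The values are read counts per gene, and levels are given here as CPM (counts scaled to a common library total) after TMM scaling, a correction of the library totals for differences in composition. Both populations were made in the same 2 batches, with replicates 1 to 5 in batch 2 and replicates 6 to 8 in batch 1. The labels do not name the antibodies of the sort, so a gene whose protein served in the sort cannot be told from the others. No label ties a replicate to an animal, so p-values measure a spread between libraries that may be technical. In pools of cells, fewer cells of a type and less RNA per cell cannot be told apart.

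Innate lymphoid cells are lymphocytes without rearranged antigen receptors. They descend from lymphoid progenitors that also give rise to B and T cells. Commitment is known to depend on the inhibitor of E proteins encoded by Id2 and on transcription factors such as GATA-3, TCF-1, PLZF and NFIL3, and the branch that makes group 2 cells depends in addition on GATA-3, Bcl11b and ROR alpha. Group 2 cells respond to IL-33, IL-25 and TSLP and secrete type 2 cytokines such as IL-5 and IL-13. CLP carry the receptor tyrosine kinase Flt3, express the recombination machinery and contain cells primed for the B lineage.

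ILC2P libraries were shallower than CLP libraries throughout. Totals ran from 19322 to 80873 counts in ILC2P (median 66812.5) and from 81976 to 246119 in CLP (median 140518), so no ILC2P library reached the depth of any CLP library. Between 2727 and 6189 genes had a count in an ILC2P library, against 6835 to 8589 in CLP. A count of 3 in a library corresponded to 35.8 to 104 CPM in ILC2P and to 14.7 to 33 CPM in CLP, so a low level was harder to see in ILC2P. Summed over the 8 libraries, 3 counts corresponded to 5.68 CPM in ILC2P and 2.69 CPM in CLP. Since the labels mention no molecular identifiers, the intervals and bounds below reflect counting error alone. Pairs of replicates differed by 6.52 to 17.9 times their sampling noise in ILC2P and by 5.53 to 18.7 times in CLP (28 pairs each), so no library was a copy of another.

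ILC2P replicate 1 stood apart. It had the lowest total, 19322 counts, and 23.6% of its counts came from the mitochondrial genome, against at most 10.5% in the other ILC2P libraries. It held 1484.6 CPM of the macrophage and neutrophil gene Lyz2, and it carried the only counts of Ly6d seen in ILC2P. The count of all called genes is therefore given with and without it. CLP split by batch in genes of dendritic cells, as described with those genes.

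The markers of the populations followed their labels. Il1rl1, which encodes the IL-33 receptor ST2 that marks group 2 cells (chr1:40404864-40465418 in GRCm38.p6, as are the positions below), was detected in all ILC2P libraries, at a lowest, median and highest level of 267, 988 and 1706.6 CPM. In CLP it was at 0 in 5 libraries and reached 11.9 CPM in the highest. The groups did not overlap, and the difference was 7.74 on the log2 scale (SE 0.84), with an adjusted p of 5.25e-13 by edgeR's quasi-likelihood test. Gata3, the transcription factor most closely tied to group 2 cells (chr2:9857078-9887953), ran at 276, 2588 and 6387 CPM in ILC2P and at 0, 12.8 and 588 CPM in CLP. CLP replicates 4 and 5, at 588 and 259 CPM, came close to or above the lowest ILC2P library, which was replicate 1. The log2 difference for Gata3 was 4.96 (SE 0.94, adjusted p = 0.000471).

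Flt3 (chr5:147330741-147400489) had no count in any ILC2P library. In CLP it ran from 178 to 575 CPM around a median of 448 CPM, so the groups did not overlap. With 0 counts in ILC2P only a bound can be given, and Flt3 was at least 70.7-fold lower (adjusted p = 6.38e-09). Bounds of this kind set the mean of the higher group against 3 counts over the whole of the other group. Il1rl1, Gata3 and Flt3 passed in all 11 alternative analyses and in all 16 fits that left out 1 library.

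The promoters of Il1rl1 and Gata3 are shown because these genes mark the later population, beside that of Rag1, which marks the earlier one and is described below. Each stretch runs from 250 bases before to 50 bases after an annotated transcription start and comes from RefSeq (GRCm38.p6), on the strand of the gene. A motif bound by GATA factors, AGATAA, was searched on both strands, with a match in capitals. The same was done for a motif that E proteins bind, CAGCTG. In Il1rl1, which has 2 starts in the table, the capitals mark AGATAA or its reverse complement TTATCT, and in Gata3 and Rag1 they mark CAGCTG, which reads the same on both strands.

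Il1rl1 upstream start, chr1:40429320-40429619, plus strand: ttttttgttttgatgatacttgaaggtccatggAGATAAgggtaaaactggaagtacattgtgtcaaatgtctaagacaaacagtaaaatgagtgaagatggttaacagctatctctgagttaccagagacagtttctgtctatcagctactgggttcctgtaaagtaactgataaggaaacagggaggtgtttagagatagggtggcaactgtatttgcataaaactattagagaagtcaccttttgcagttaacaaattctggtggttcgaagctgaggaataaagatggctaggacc
Il1rl1 downstream start, chr1:40439379-40439678, plus strand: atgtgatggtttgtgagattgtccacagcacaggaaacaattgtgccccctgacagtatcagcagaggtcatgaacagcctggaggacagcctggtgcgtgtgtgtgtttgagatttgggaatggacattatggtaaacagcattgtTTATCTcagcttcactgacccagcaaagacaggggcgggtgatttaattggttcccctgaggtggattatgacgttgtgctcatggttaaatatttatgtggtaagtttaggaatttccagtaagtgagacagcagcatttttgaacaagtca
Gata3, chr2:9878551-9878850, minus strand: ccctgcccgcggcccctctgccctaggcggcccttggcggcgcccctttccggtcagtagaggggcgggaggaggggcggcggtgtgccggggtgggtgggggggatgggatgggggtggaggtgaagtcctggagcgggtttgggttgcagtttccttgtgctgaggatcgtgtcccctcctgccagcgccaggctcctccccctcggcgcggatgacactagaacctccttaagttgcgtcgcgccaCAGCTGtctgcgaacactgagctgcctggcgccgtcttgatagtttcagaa
Rag1, chr2:101649483-101649782, minus strand: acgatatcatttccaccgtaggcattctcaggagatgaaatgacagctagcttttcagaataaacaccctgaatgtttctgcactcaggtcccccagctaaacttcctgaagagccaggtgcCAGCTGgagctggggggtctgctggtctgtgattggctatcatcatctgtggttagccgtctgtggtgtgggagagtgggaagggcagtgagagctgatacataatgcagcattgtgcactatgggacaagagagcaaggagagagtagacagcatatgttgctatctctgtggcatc

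These matches are a description and not evidence of a site. AGATAA was held by 8.74% of the 366 promoters of genes higher in ILC2P, by 6.28% of the 924 promoters of genes lower in ILC2P and by 6.61% of the 10796 promoters of all genes tested. CAGCTG was held by 15.3%, 13.6% and 14.5% of the same promoters. CCCNNGGG, a motif of the B lineage factor EBF1, was held by 20.2%, 17.9% and 17.8%. Over all 32851 promoters in the table the shares were 11.2%, 16.3% and 13.7%. Of the genes called, 277 of 380 higher and 704 of 878 lower had a promoter in the table.

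**Figure D1:**
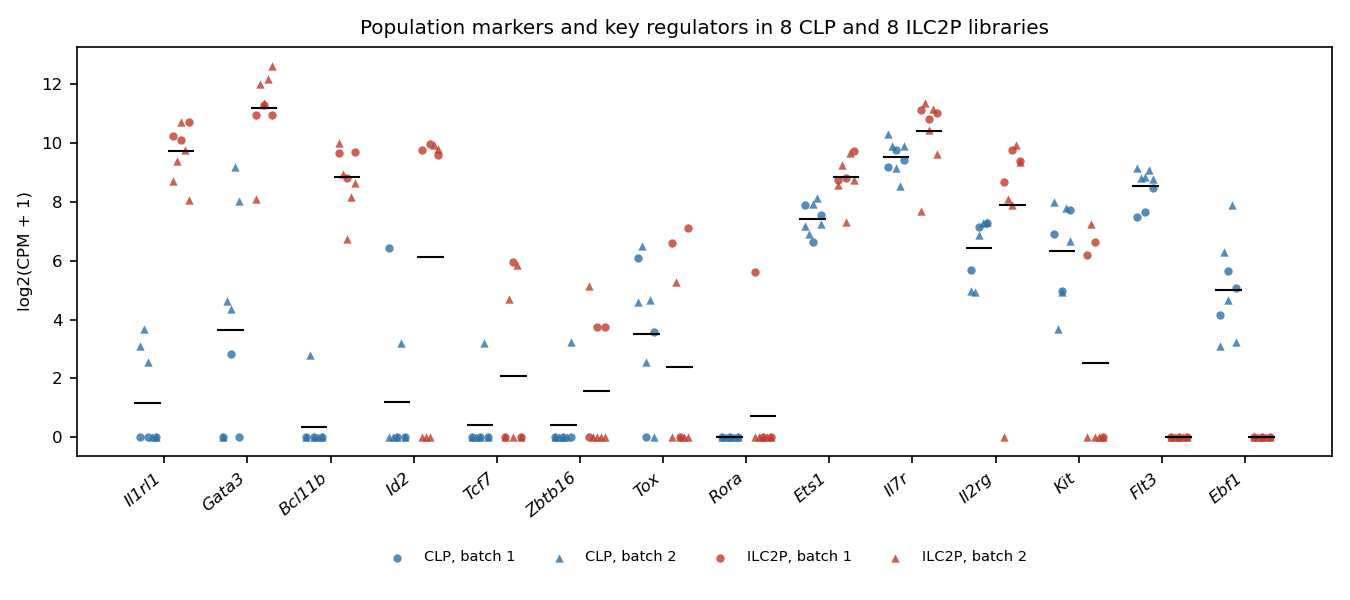
Level of the population markers and key regulators in each library, as log2(CPM + 1), for CLP (blue) and ILC2P (red), with circles for batch 1, triangles for batch 2 and a bar at the mean of each population. All ILC2P libraries lie above all CLP libraries for Il1rl1 and Bcl11b, all ILC2P libraries lie at 0 for Flt3 and Ebf1, and Id2 splits ILC2P into 3 libraries at 0 and 5 libraries between 769 and 1002 CPM.

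Of 10972 genes tested across the series, 380 were higher in ILC2P than in CLP (3.46%) and 878 were lower (8%), at an adjusted p under 0.05 by edgeR's quasi-likelihood test. Without ILC2P replicate 1 the counts were 333 (3.04%) and 696 (6.36%), and without replicates 1 and 3, the shallowest libraries, 288 (2.63%) and 552 (5.04%). The median log2 difference over all genes tested was -0.43, against -0.18 with the size factors of DESeq2 and 0.03 with limma-voom. Genes higher in ILC2P made up 30.2% of the calls, 44.7% with the size factors of DESeq2 and 42.4% with limma-voom. The balance between directions thus moved with the scaling. It also moved with limma-voom, which kept TMM scaling but changed the model and the weights. DESeq2 called 5.25% of its 7517 genes higher and 8.17% lower, its size factors in edgeR gave 4.48% and 5.54%, and limma-voom gave 5.94% and 8.08%. A gene's own difference is best read against the median of all genes. Of the called genes, 178 had no count in CLP and 352 had none in ILC2P. All 8 ILC2P libraries lay above all 8 CLP libraries for 29 genes tested (0.264%) and below them for 141 (1.29%), or 1.55% in either direction. Within each batch alone, 127 and 124 genes were higher in batches 1 and 2 (1.47% and 1.57%), and 319 and 247 were lower (3.69% and 3.13%). Of the 1266 genes that passed the filter in the 16 libraries alone, 0 (0%) had a population difference that differed between the batches at an adjusted p under 0.05 in edgeR, and 57 did at an unadjusted p under 0.05.

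**Figure D2:**
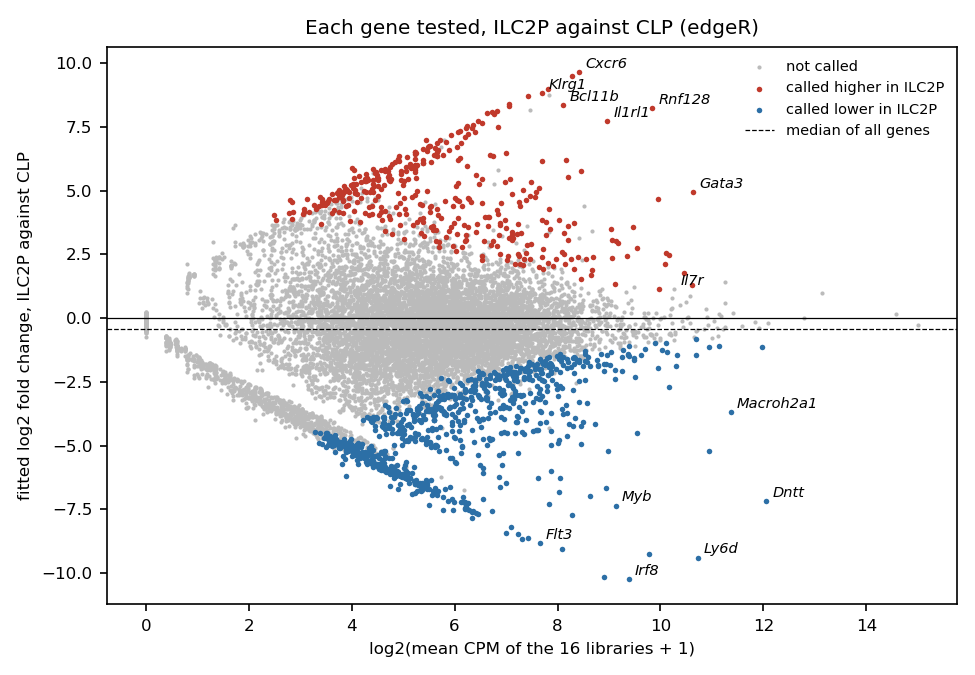
Fitted log2 difference between ILC2P and CLP (y axis) against the level over the 16 libraries, as log2(mean CPM + 1) (x axis), 1 point per gene tested, with called genes in red (380 higher) and blue (878 lower) and a dashed line at the median of all genes, -0.43. The diagonal edges of the cloud hold genes with no count in 1 of the populations, whose fitted difference is no bound.

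Of 18 regulators of innate lymphoid cells tested, 9 were higher in ILC2P (50%, against 3.46% of all genes) and 1 was lower (5.56%, against 8%), with a median log2 difference of 2.42 against -0.43 over all genes. With genes at 0 in 1 population set to their bounds, that median was 2.02. Bcl11b, a zinc finger factor that T cells and group 2 cells share, ran at 107, 467 and 1036 CPM in ILC2P, while CLP held a single count, in replicate 2. No ILC2P library overlapped with CLP, and the ratio of summed counts was 615, with a 95% counting interval of 110 to 24370 (adjusted p = 2.15e-13). Ikzf2, which encodes the Ikaros family factor Helios, was seen in all 16 libraries. It ran at 326, 498 and 827 CPM in ILC2P and at 22, 39.2 and 84.3 CPM in CLP, a log2 difference of 3.60 (SE 0.50, adjusted p = 4.06e-08) with no overlap. Ikzf3, which encodes Aiolos of the same family, had counts in 7 of 8 ILC2P libraries, up to 880 CPM, and none in CLP (at least 97.8-fold higher, adjusted p = 1.78e-07).

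Id2 did not behave as a single level in ILC2P. It was at 0 in replicates 1, 2 and 3 and between 769 and 1002 CPM in the other 5. In CLP it was at 0 in 6 libraries, with 84.8 CPM in replicate 6 and 8.17 CPM in replicate 4. The log2 difference was 6.20 (SE 1.18, adjusted p = 0.000471), and it passed in all 16 fits that left out a library. Replicates 1 and 3 were the shallowest of the group, with 19322 and 26072 counts, but replicate 2 had 69702 counts. The part of depth in the zeros was not tested.

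Other regulators differed less or fell. Ets1, an ETS family factor needed for ILC2 development, ran at 160, 438 and 856 CPM in ILC2P and at 97.7, 169 and 278 CPM in CLP. Its log2 difference was 1.55 (SE 0.46, adjusted p = 0.0184), and without ILC2P replicate 8 it was 1.30 with an adjusted p of 0.06. Maf, a bZIP transcription factor, was detected in all ILC2P libraries, at 34.5 to 831 CPM, against 0 to 88.1 CPM in CLP (log2 difference 3.16, SE 0.79, adjusted p = 0.00413). Runx1, a core factor of blood formation, went the other way, at 0 to 124 CPM in ILC2P and 178 to 629 CPM in CLP without overlap (log2 difference -2.43, SE 0.61, adjusted p = 0.00413). Lef1, the relative of Tcf7, was at 0 in CLP and had counts in 3 ILC2P libraries (adjusted p = 0.0186). Its call rested on ILC2P replicate 5, at 133 CPM, and without that library the adjusted p was 0.198.

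Some regulators with a name in this pathway were barely present at either end. Tcf7, which encodes TCF-1, had counts in 3 ILC2P libraries, at 25.1, 57.5 and 61.8 CPM, and 1 count in CLP. The test called it higher (adjusted p = 0.0237, ratio of summed counts 23.2 with a 95% counting interval of 3.38 to 1001), and the call was lost without ILC2P replicate 4 (adjusted p = 0.0605) or replicate 7 (0.101). Zbtb16, which encodes PLZF, had 3 counts in ILC2P and 1 in CLP (adjusted p = 0.33). Tox, an HMG box factor, reached 136 CPM in ILC2P and 89.4 CPM in CLP, with a log2 difference of 0.21 (SE 0.81, adjusted p = 0.947) whose sign changed between the batches (1.50 in batch 1, -1.49 in batch 2, neither past the threshold). Rora, which encodes ROR alpha, had 47.7 CPM in ILC2P replicate 6 and no count elsewhere among the 16 libraries (adjusted p = 0.133). Nfil3, a bZIP factor, had 1 count in ILC2P and 13 in CLP (adjusted p = 0.365). In ILC2P 3 counts corresponded to 35.8 to 104 CPM in a library and to 5.68 CPM over the group. Levels of these transcripts below those values could be missed.

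Genes of group 2 cells were higher in ILC2P almost throughout. Of 27 genes named, 18 were tested, and 16 of these were higher in ILC2P (88.9%, against 3.46% of all genes). In edgeR 0 were lower, 1 had an unadjusted p under 0.05 in that direction, and limma-voom called 1 lower. Their median log2 difference was 5.46, or 4.66 with genes at 0 in CLP set to their bounds. Summed over the list, these genes held 0.492 to 1.19% of the counts of each ILC2P library and 0.0116 to 0.0655% in CLP. Without ILC2P replicate 1, and without both shallow libraries, the count was again 16 of 18. The filter did not require counts in both populations, so members at 0 in CLP entered only through ILC2P or other groups. The share of 88.9% depends on this and is a description. With only the 16 compared libraries, 6 members were tested and 6 were higher, against 66 of all 1266 genes. The same limit holds for the shares of the other lists, in either direction, where members at 0 in 1 population entered through the other or through other groups.

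Among receptors, Icos, which encodes a costimulatory receptor of group 2 cells and T cells, ran at 175, 702 and 1166 CPM in ILC2P and at 0, 3.83 and 57.2 CPM in CLP. The 2 groups stayed apart, and the log2 difference was 5.76 (SE 0.82, adjusted p = 2.15e-07). Il2ra (the alpha chain of the IL-2 receptor) and Il17rb (the IL-25 receptor) were also detected in all ILC2P libraries without overlap, at 138 to 829 CPM and 80 to 547 CPM, with log2 differences of 6.15 and 4.86 (adjusted p = 3.72e-07 and 2.36e-05). Klrg1, a lectin-like receptor of differentiated group 2 cells, varied more: it was at 0 in ILC2P replicate 2, between 34.5 and 47.7 CPM in 3 others and at 1897 CPM in replicate 5, with a median of 154 CPM. No CLP library had a Klrg1 count, so it was at least 154-fold higher (adjusted p = 1.91e-07). Ly6a, which encodes Sca-1, was high in ILC2P, at 302 to 1707 CPM. It was also seen in all CLP libraries, at 8.17 to 399 CPM, and CLP replicate 2 overlapped with ILC2P replicate 4 (log2 difference 2.95, SE 0.66, adjusted p = 0.00158).

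Rnf128, which encodes the E3 ubiquitin ligase GRAIL, had the smallest adjusted p of the list. It ran at 480, 1962 and 3008 CPM in ILC2P, and in CLP it had counts in 2 libraries, with 38.3 CPM in the higher one. The groups did not overlap, and the log2 difference was 8.24 (SE 0.74, adjusted p = 1.79e-16). Arg1, the arginase that group 2 cells carry, was detected in all ILC2P libraries, from 26.7 to 335 CPM, and in no CLP library (at least 56-fold higher, adjusted p = 1.78e-05). The 3 ILC2P libraries of batch 1 were the highest for Arg1, at 262, 284 and 335 CPM, against at most 104 CPM in batch 2. Lpcat2, Hpgds, Pparg and Calca, which encode enzymes of lipid mediators, a lipid-sensing nuclear receptor and a neuropeptide precursor, were higher as well (adjusted p = 0.000592, 0.0035, 0.00575 and 0.00928). Pparg and Calca had no count in CLP, and Hpgds had counts in 4 ILC2P libraries, at 593 and 655 CPM in replicates 5 and 7 and below them in replicates 6 and 8. Cysltr1, a leukotriene receptor, ran from 0 to 748 CPM in ILC2P and had counts in 2 CLP libraries (log2 difference 4.79, SE 0.96, adjusted p = 0.000136). Il9r, the IL-9 receptor, had counts in 5 ILC2P libraries and none in CLP (at least 21.5-fold higher, adjusted p = 0.00301).

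The effector cytokines themselves were nearly absent. Il5 had no count in any of the 16 libraries, and Il13 had counts in ILC2P replicate 8 alone, at 62 CPM. Il4 had counts in 4 of 8 ILC2P libraries, up to 115 CPM, and none in CLP (at least 9.97-fold higher, adjusted p = 0.0144). Areg, which encodes amphiregulin, had counts in 2 libraries of each population (adjusted p = 0.852). Ptgdr2, which encodes the prostaglandin D2 receptor CRTH2, was at 0 in all 16. A count of 0 in ILC2P allows a mean of up to 5.68 CPM. Crlf2, which encodes the TSLP receptor chain, was the other tested member that was not called, at 0 to 25.1 CPM in ILC2P and 4.89 to 204 CPM in CLP (log2 difference -2.56, SE 1.04, adjusted p = 0.079).

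**Figure D3:**
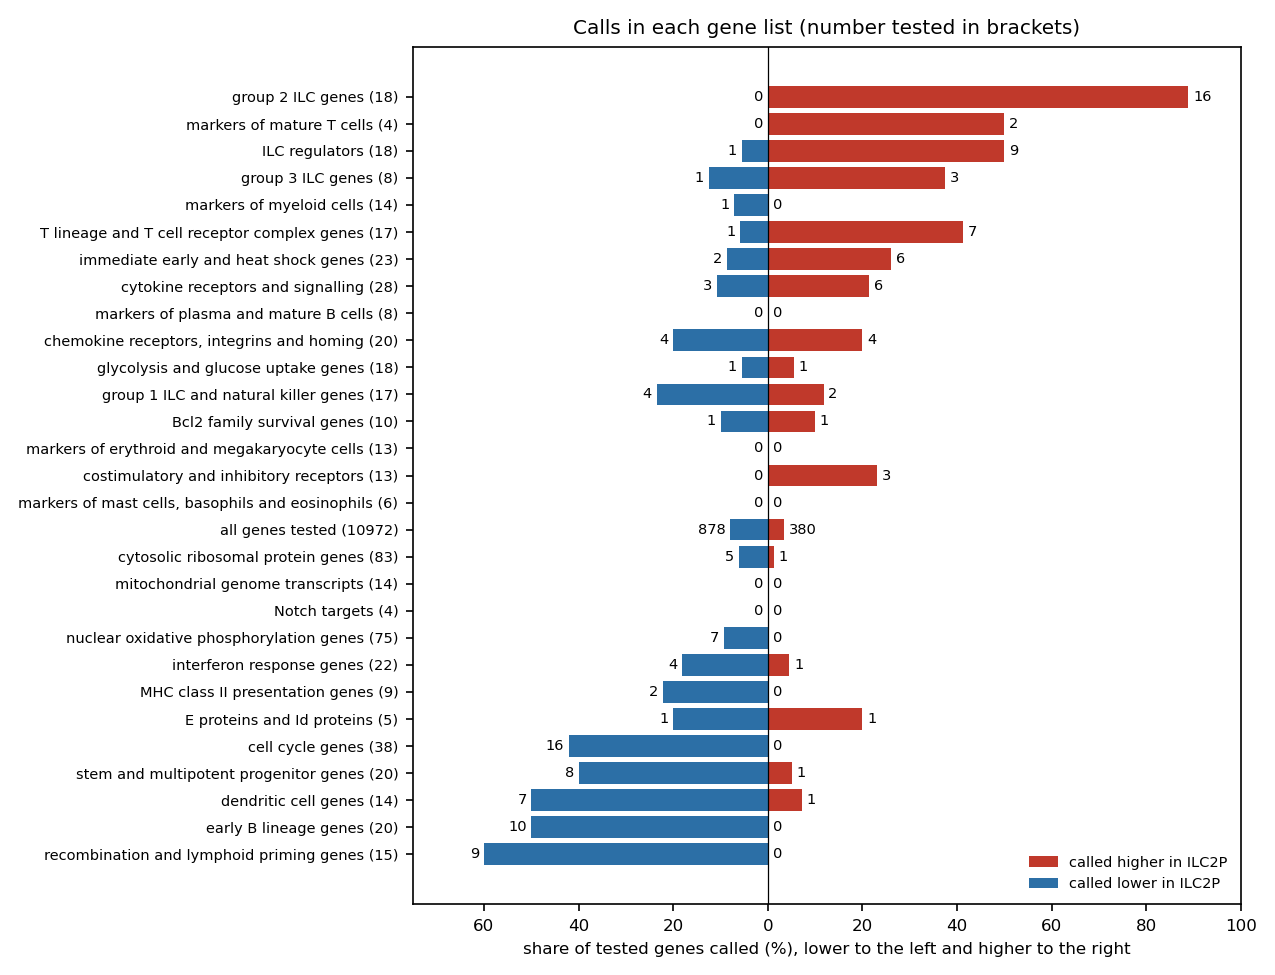
Share of the tested genes of each list that were called higher in ILC2P (red, to the right) or lower (blue, to the left), with the number called beside each bar and the number tested in brackets; lists are ordered by their median log2 difference. Group 2 genes have 16 of 18 called higher and recombination genes 9 of 15 called lower, against 380 and 878 of 10972 over all genes.

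Of 28 genes of cytokine receptors and their signalling, 6 were higher in ILC2P (21.4%, against 3.46% of all genes) and 3 lower (10.7%, near the 8% of all genes). Il7r, the receptor for IL-7 on which lymphoid progenitors depend, ran at 207, 1958 and 2619 CPM in ILC2P and at 376, 777 and 1258 CPM in CLP. Its log2 difference was 1.13 (SE 0.42), with an adjusted p of 0.0647. It passed in 8 of 11 alternatives and without ILC2P replicate 1, the lowest ILC2P library (log2 difference 1.28, adjusted p = 0.0294). Il2rg, the shared gamma chain, was at 0 in that replicate and at 240 to 978 CPM in the other ILC2P libraries, against 29.8 to 159 CPM in CLP (log2 difference 2.31, SE 0.57, adjusted p = 0.00338). Cish, a feedback inhibitor of cytokine signalling, was detected in all ILC2P libraries, at 34.5 to 385 CPM, and at 0 to 58.7 CPM in CLP (log2 difference 3.24, SE 0.94, adjusted p = 0.0124). Socs1, another such inhibitor, ran from 0 to 372 CPM in ILC2P and had counts in 2 CLP libraries (log2 difference 4.68, SE 1.04, adjusted p = 0.000506). Jak2, a receptor-bound kinase, was called higher (log2 difference 2.27, adjusted p = 0.0362), but 7 libraries each ended the call when left out, with an adjusted p of 0.0518 to 0.098. They were CLP replicates 2, 3, 4, 7 and 8 and ILC2P replicates 3 and 7.

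Of the 3 genes lower in ILC2P, Csf2rb, the common beta chain of the IL-3, IL-5 and GM-CSF receptors, had no count there and reached 281 CPM in CLP (at least 13.9-fold lower, adjusted p = 0.00313). Il21r was also at 0 in ILC2P and had counts in all CLP libraries (at least 8.1-fold lower, adjusted p = 0.0115). Il18r1, the IL-18 receptor, lies directly downstream of Il1rl1 (chr1:40465552-40500854) and moved in the opposite direction. It had counts in 2 ILC2P libraries, at 29.6 and 95.4 CPM, and ran from 29.4 to 153 CPM in CLP. The log2 difference was -2.34 (SE 0.77, adjusted p = 0.0294), and it was lost without ILC2P replicate 2, 7 or 8 (adjusted p of 0.0546, 0.0585 and 0.0597).

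Of 20 homing molecules tested, 4 were higher and 4 lower (20% each, against 3.46% and 8% of all genes), and 12 were not called. Cxcr6, a chemokine receptor known from ILC precursors, ran at 238, 458 and 2320 CPM in ILC2P and had no count in CLP. Replicate 3 was far above the rest, and the mean was at least 253-fold higher (adjusted p = 5.25e-13). Ccr2, a chemokine receptor of monocytes and some lymphocytes, ran at 86.9 to 560 CPM in ILC2P and 0 to 11.9 CPM in CLP without overlap (log2 difference 5.33, SE 0.74, adjusted p = 9.8e-09). Ccr9, a gut homing receptor counted with the group 2 genes, was at 173 to 1447 CPM against 0 to 287 CPM, with CLP replicates 6 and 7 inside the range of ILC2P (log2 difference 3.50, SE 0.73, adjusted p = 0.000579). Itgb7, the beta chain of the integrin α4β7, ran from 34.5 to 1280.0 CPM in ILC2P and from 0 to 238 CPM in CLP (log2 difference 3.32, SE 0.76, adjusted p = 0.00148). Itgb3, the integrin beta 3 chain, did not overlap, at 87.7 to 310 CPM against counts in a single CLP library (log2 difference 4.52, SE 0.93, adjusted p = 0.000154).

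Cxcr4, which holds progenitors in the marrow, was at 0 to 59.6 CPM in ILC2P and 16.3 to 264 CPM in CLP (log2 difference -3.11, SE 0.84, adjusted p = 0.00708). Itgb1, the integrin beta 1 chain, was lower as well (log2 difference -2.62, SE 0.77, adjusted p = 0.0143). Ccr7 had no count in ILC2P and reached 102 CPM in CLP (at least 9.93-fold lower, adjusted p = 0.00706). Of 13 costimulatory and inhibitory receptors, 3 were higher (23.1%, against 3.46% of all genes). In edgeR 0 were lower, 3 had an unadjusted p under 0.05 in that direction and limma-voom called 1. Tnfrsf25, the receptor for TL1A, a cytokine that acts on group 2 cells, was detected in all ILC2P libraries, from 80 to 409 CPM, and in no CLP library (at least 64.7-fold higher, adjusted p = 3.11e-06). Tnfsf14 and Cd226 were also at 0 in CLP, and at least 27.3-fold and 36.7-fold higher (adjusted p = 0.000419 and 0.000379). A single ILC2P library stood apart in each and raised the bound: replicate 2 at 338 CPM for Tnfsf14 and replicate 5 at 474 CPM for Cd226.

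Genes of T cells that innate cells share were higher in part. Of 17 tested, 7 were higher (41.2%, against 3.46% of all genes) and 1 lower (5.88%, against 8%), with a median log2 difference of 2.08. Without ILC2P replicate 1 the count was again 7 of 17, with a median of 1.33. The limit set by the filter for group 2 genes holds here too, so the share is a description. With only the 16 compared libraries, 1 member was tested and 0 were higher. Skap1, an adaptor of T cell receptor signalling, had counts in 7 of 8 ILC2P libraries and none in CLP, and was at least 83.5-fold higher (adjusted p = 4.96e-07). Lcp2, which encodes the adaptor SLP-76, ran from 0 to 422 CPM in ILC2P and from 0 to 38.3 CPM in CLP (log2 difference 3.97, SE 0.91, adjusted p = 0.0011). Thy1, a surface glycoprotein of T cells and innate lymphoid cells, had counts in 6 ILC2P libraries, up to 335 CPM, and in 2 CLP libraries, up to 24.5 CPM (log2 difference 4.71, SE 1.01, adjusted p = 0.000563). Lck, a kinase, fell, from 61.3 to 319 CPM in CLP to 0 to 115 CPM in ILC2P (log2 difference -2.23, SE 0.68, adjusted p = 0.0187). The defining CD3 chains of the T cell receptor complex were at or near 0: Cd3d and Cd3e had no count in any of the 16 libraries, and Cd3g had counts in 2 ILC2P libraries, at 12.4 and 34.5 CPM, and in no CLP library (adjusted p = 0.159). Trbc1 and Trbc2, the constant regions of the beta chain, are near copies whose reads may be split by the counting. They had counts in 5 of 8 ILC2P libraries each, up to 489 and 451 CPM, and at most 38.3 and 33.4 CPM in CLP (log2 differences 3.95 and 3.65, adjusted p = 2.71e-05 and 0.00158). They were the 2 genes called among 4 tested markers of mature T cells (50% higher, against 3.46% of all genes). These markers held 0 to 0.108% of the counts of an ILC2P library and at most 0.00426% in CLP. Their part in the T lineage calls was not tested.

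Genes of the other ILC groups gave a mixed picture. Of 17 group 1 and natural killer genes tested, 2 were higher and 4 lower (11.8% and 23.5%, against 3.46% and 8% of all genes), with a median log2 difference of 0.06, or -1.41 with genes at 0 in 1 population set to their bounds and genes at 0 in both left out. The defining factors Tbx21 and Eomes had no count in any of the 16 libraries, nor had Ncr1, Gzma or Ifng. Ccl5, a chemokine, was detected in all ILC2P libraries, at 23.8 to 552 CPM, and at 0 to 102 CPM in CLP (log2 difference 3.75, SE 1.06, adjusted p = 0.0169). Klrb1b was called through ILC2P replicate 6 alone: without it the adjusted p was 0.368. Tyrobp and Fcer1g, adaptors of activating receptors, fell without overlap in the case of Tyrobp, from 119 to 1203 CPM in CLP to at most 115 CPM in ILC2P (log2 difference -4.22, SE 0.87, adjusted p = 0.00109). Fcer1g was at 71.6 to 356 CPM in CLP and 0 to 71.9 CPM in ILC2P (log2 difference -2.62, SE 0.64, adjusted p = 0.00275). Nkg7, a granule protein, ran from 23 to 368 CPM in CLP and had no count in ILC2P (at least 26.5-fold lower, adjusted p = 1.61e-06). Klrd1 had 3 counts in ILC2P and counts in all CLP libraries (log2 difference -3.53, SE 1.04, adjusted p = 0.0113).

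Of 8 group 3 genes tested, 3 were higher and 1 lower (37.5% and 12.5%, against 3.46% and 8% of all genes). Ltb, which encodes lymphotoxin beta, ran at 113, 324 and 881 CPM in ILC2P and at 0 to 100 CPM in CLP without overlap (log2 difference 4.29, SE 0.82, adjusted p = 9.22e-05). Ahr, the aryl hydrocarbon receptor, had counts in 7 ILC2P libraries and 2 CLP libraries (log2 difference 3.86, SE 0.99, adjusted p = 0.00413). Tnfsf11, which encodes RANKL, had an adjusted p of 0.0392 that 11 single libraries could end, among them ILC2P replicate 3, which held 2267 CPM (log2 difference 2.34 without it, adjusted p = 0.149). The others were ILC2P replicates 5, 7 and 8 and CLP replicates 1 and 3 to 8, and the adjusted p over the 11 was 0.05 to 0.149. Nrp1 fell with an adjusted p of 0.0445 that 10 single libraries could end, with values of 0.0542 to 0.145. They were CLP replicates 5 and 7 and each ILC2P replicate. Il22 and Il17a, effector cytokines of group 3 cells, had no count in any of the 16 libraries.

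**Figure D4:**
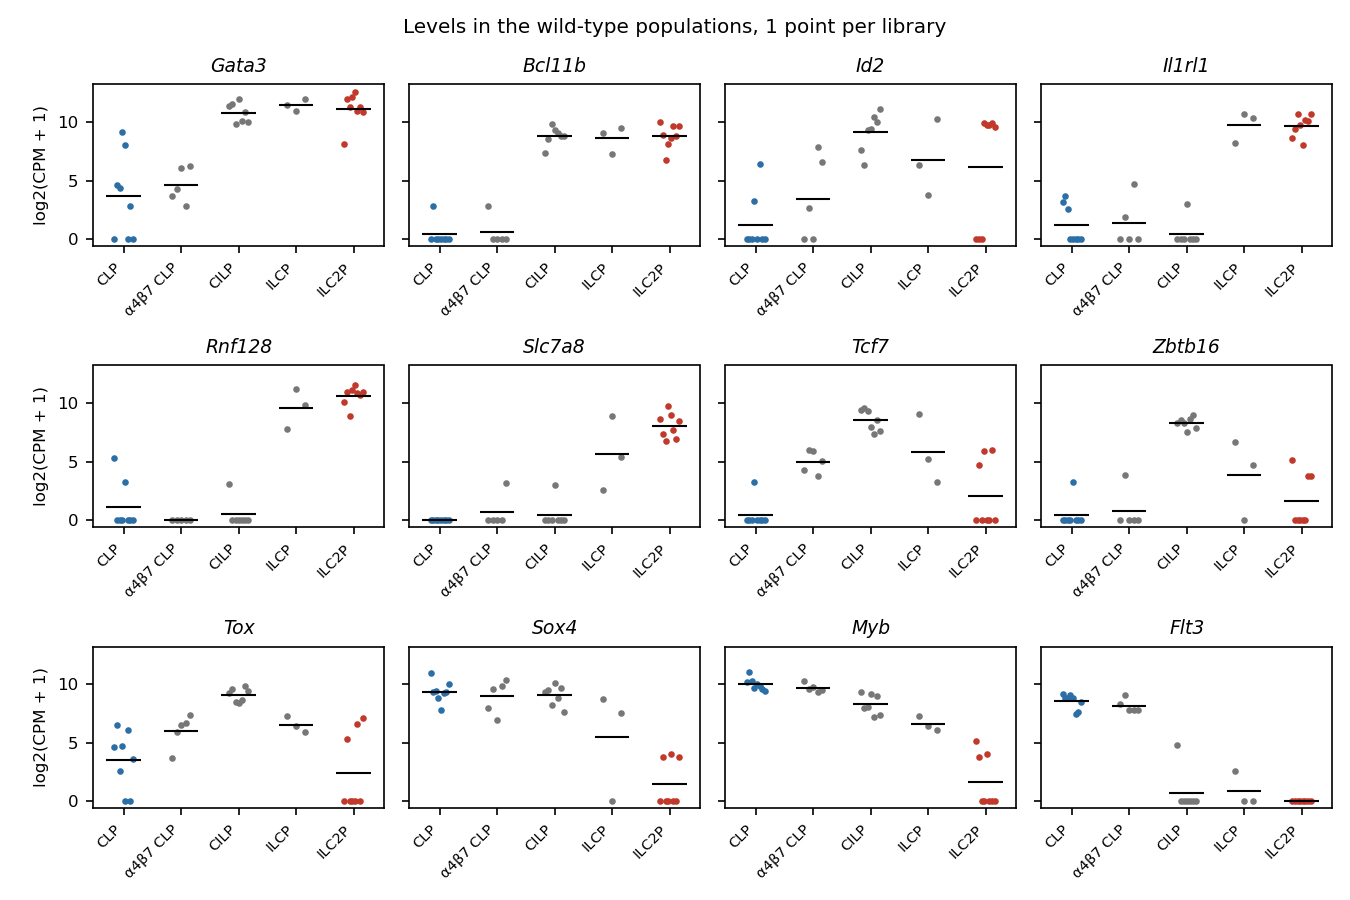
Level of 12 genes, as log2(CPM + 1), in each wild-type library of the model for CLP (8), CLP carrying α4β7 (5), CILP (7), ILCP (3) and ILC2P (8), with a bar at the mean of each population. Gata3 and Bcl11b are high from CILP on, Id2 is high in CILP and at 0 in 3 ILC2P libraries, Il1rl1, Rnf128 and Slc7a8 are high in ILCP and ILC2P, and Tcf7, Zbtb16 and Tox are highest in CILP.

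The populations between the ends show in which of them these genes were high, as a description with no test. Their order in time was not tested. CILP are common innate lymphoid progenitors (7 libraries), and ILCP is a population whose gate the labels do not give (3 libraries). Gata3 was at 112 ± 212 CPM in CLP (mean ± SD), 2120 ± 1231 CPM in CILP, 3000 ± 1018 CPM in ILCP and 3075 ± 1901 CPM in ILC2P. Bcl11b went from 0.745 ± 2.11 to 517 ± 237, 480 ± 291 and 551 ± 313 CPM over the same populations. For both genes the last 3 populations overlapped. Il1rl1 was still at 0.984 ± 2.6 CPM in CILP and reached 1103 ± 727 CPM in ILCP, next to 991 ± 537 CPM in ILC2P. Rnf128 and Il2ra shared this difference between CILP and ILCP, with means of 1.06 CPM each in CILP and 1187 and 329 CPM in ILCP.

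Tcf7, Zbtb16 and Tox had their highest means in CILP. Tcf7 was at 1.02 ± 2.89 CPM in CLP, 445 ± 253 in CILP, 198 ± 304 in ILCP and 18.1 ± 27.1 in ILC2P. Zbtb16 followed with 1.04 ± 2.96, 339 ± 111, 43 ± 54.1 and 7.41 ± 12.3 CPM. Tox went through 27.6 ± 33.4, 590 ± 228, 98.9 ± 48.6 and 33.7 ± 53.5 CPM, and Rora through 0, 186 ± 144, 62.7 ± 77.1 and 5.96 ± 16.9 CPM. The same shape held for Il18r1 (89.4 ± 39.9, 738 ± 239, 180 ± 156 and 15.6 ± 33.8 CPM) and Ccl5 (15.2 ± 35.3, 2675 ± 1169, 413 ± 656 and 218 ± 202 CPM).

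Genes of recombination and lymphoid priming were lower in ILC2P. Of 15 tested, 9 were lower in ILC2P (60%, against 8% of all genes), with a median log2 difference of -3.70, or -1.83 with genes at 0 in ILC2P set to their bounds. The list held 0.714 to 1.65% of the counts of a CLP library and 0.0502 to 0.199% in ILC2P. Dntt, which encodes the terminal transferase that adds bases at antigen receptor joints, ran at 3096, 9731 and 14358 CPM in CLP. In ILC2P Dntt was at 0 in 4 libraries, with a median of 6.26 CPM and a highest value of 587 CPM, in replicate 1. The ranges stayed apart (log2 difference -7.17, SE 1.11, adjusted p = 2.61e-05), and in CLP the 3 libraries of batch 1 were the lowest, at 3096 to 4373 CPM against 9123 to 14358 CPM in batch 2.

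Rag1, which encodes a subunit of the recombinase (its promoter is printed above), ran at 294, 479 and 733 CPM in CLP and at 0, 6.2 and 213 CPM in ILC2P (log2 difference -3.75, SE 0.90, adjusted p = 0.00282). Rag2, the other subunit and its neighbour on chromosome 2, was at 15.3 to 368 CPM in CLP and at 0 in all ILC2P libraries (at least 24.4-fold lower, adjusted p = 0.000378). Sox4, an HMG box factor of progenitors, had 3 counts in ILC2P against a range of 217 to 1986.0 CPM in CLP, a ratio of summed counts of 136 with a 95% counting interval of 46.4 to 661 (adjusted p = 6.05e-08). Xrcc6, which encodes the end-joining protein Ku70, ran at 245 to 1842 CPM in CLP and 0 to 124 CPM in ILC2P without overlap (log2 difference -4.24, SE 0.69, adjusted p = 2.32e-06). Notch1, the receptor that directs progenitors to the T lineage, was at 227 to 874 CPM in CLP and 0 to 104 CPM in ILC2P, again without overlap (log2 difference -3.70, SE 0.70, adjusted p = 6.17e-05). Satb1, a chromatin organizer, was lower but still present, at 59.3 to 372 CPM against 343 to 1150 CPM (log2 difference -1.82, SE 0.48, adjusted p = 0.00697). Of 4 Notch targets tested, none was called by edgeR or had an unadjusted p under 0.05, with Hes1 at an adjusted p of 0.921 and Myc at 0.477. DESeq2 called 0 of 2 and limma-voom 1 of 4.

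Of 20 early B lineage genes tested, 10 were lower (50%, against 8% of all genes), with a median log2 difference of -3.57, or -3.04 with genes at 0 set to their bounds. Members at 0 in ILC2P passed the filter through CLP or other groups, so this share is a description. In the 16 compared libraries alone, 7 were tested and 3 were lower, against 91 of all 1266 genes. In the recombination, early B, cell cycle and MHC class II lists 0 genes were higher by edgeR, DESeq2 or limma-voom, or at an unadjusted p under 0.05 in edgeR. Ly6d, a surface protein of B-primed CLP, ran at 1845, 2935 and 5970 CPM in CLP and had 2 counts in ILC2P, both in replicate 1. No overlap was seen, and the ratio of summed counts was 828 with a 95% counting interval of 229 to 6837 (adjusted p = 1.32e-05). Bcl11a, a factor of early lymphoid progenitors, was at 173 to 1247 CPM in CLP and 0 to 173 CPM in ILC2P (log2 difference -4.93, SE 0.75, adjusted p = 4.14e-07). Blnk and Syk, an adaptor and a kinase of B cell receptor signalling, were at 299 to 947 and 89.8 to 562 CPM in CLP and at most 133 and 71.5 CPM in ILC2P, with log2 differences of -4.61 and -3.65 (adjusted p = 1.02e-05 and 0.000377). Cd24a, a surface glycoprotein of early B cells, had no count in ILC2P and up to 466 CPM in CLP (at least 25.6-fold lower, adjusted p = 0.000308). Spib, an ETS family factor of B and dendritic cells, was highest in the 3 CLP libraries of batch 1, at 322 to 598 CPM, against 0 to 137 CPM in batch 2 and counts in 1 ILC2P library (log2 difference -4.78, SE 1.20, adjusted p = 0.00242). Ebf1, the factor that sets up the B lineage, had counts in all CLP libraries but at a low median of 28.8 CPM, with 237 CPM in replicate 4, and none in ILC2P (at least 9.99-fold lower, adjusted p = 0.00928). Its call was missed by DESeq2 (adjusted p = 0.0678) and in batch 2 alone (0.0672). Ighm, the immunoglobulin mu locus, was at 0 to 2681 CPM in CLP and 0 to 1067 CPM in ILC2P and was not called (log2 difference -0.33, SE 0.91, adjusted p = 0.907). Pax5, which locks in B identity, had no count in any of the 16 libraries.

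Of 20 stem and multipotent progenitor genes tested, 8 were lower (40%, against 8% of all genes) and 1 higher (5%, near the 3.46% of all genes), with a median log2 difference of -2.89. Myb, a factor of progenitor proliferation, ran at 694, 993 and 2159 CPM in CLP and had 3 counts in ILC2P. The groups did not overlap (log2 difference -7.35, SE 0.64, adjusted p = 1.6e-17). Cd34, a sialomucin of progenitors, had a single ILC2P count against 85.5 to 519 CPM in CLP (adjusted p = 2.49e-06). Egfl7 and Hhex, a secreted protein and a homeobox factor, had no count in ILC2P and were at least 45-fold and 26.9-fold lower (adjusted p = 5.29e-06 and 2.95e-05). Adgrg1, an adhesion receptor, had counts in a single ILC2P library, at 113 CPM, below the lowest CLP library at 147 CPM (log2 difference -4.38, SE 0.79, adjusted p = 2.36e-05). Lmo2 and Lyl1, transcriptional partners in stem and progenitor cells, were lower too (log2 differences -4.43 and -5.03, adjusted p = 0.000164 and 0.000626). Kit, the stem cell factor receptor, was in both populations, at 0 to 150 and 11.9 to 253 CPM, and was not called (log2 difference -1.39, SE 0.73, adjusted p = 0.2). Hlf, a factor best known from stem cells, was the one called higher, at 34.5, 259 and 371 CPM in ILC2P and 0, 4.24 and 95.4 CPM in CLP (log2 difference 3.15, SE 0.88, adjusted p = 0.0102), with ILC2P replicate 1 inside the CLP range.

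Dendritic cell genes were lower in 7 of 14 tested (50%, against 8% of all genes) and higher in 1 (7.14%, against 3.46%). Irf8, a factor of dendritic and myeloid cells, had no count in ILC2P and counts in all CLP libraries (at least 234-fold lower, adjusted p = 0.000142). Within CLP it split by batch, with 1773 to 4199 CPM in the 3 batch 1 libraries against 25.1 to 307 CPM in the 5 others. The bound for Irf8 uses the mean over both batches, which the batch 1 libraries raised, and would be smaller in batch 2. Tcf4, the E protein of plasmacytoid dendritic cells and counted with the E and Id proteins, split the same way, at 1553 to 3713 CPM and 345 to 753 CPM, and was at 34.5 to 396 CPM in ILC2P (log2 difference -2.32, SE 0.43, adjusted p = 4.09e-05). In batch 2 alone the log2 difference of Tcf4 was -1.33, with an adjusted p of 0.224. Of the 5 E and Id protein genes tested, Id2 was higher and Tcf4 lower (20% each, against 3.46% and 8% of all genes). Tcf3, Tcf12 and Id3 were not called (adjusted p = 0.151, 0.567 and 0.0871). Summed over the list, dendritic genes held 0.464 to 0.894% of the counts of a CLP library in batch 1, 0.115 to 0.258% in batch 2 and at most 0.114% in ILC2P. The part of dendritic cells in the CLP libraries was not tested.

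Cox6a2, Siglech and Runx2, which are on that list, passed in each batch alone. Cox6a2, a cytochrome oxidase subunit, ran at 305 to 866 CPM in CLP with a single count in ILC2P (log2 difference -7.72, SE 0.95, adjusted p = 3.49e-11). Siglech, a receptor of plasmacytoid dendritic cells, and Runx2 were at 49 to 1281 and 201 to 1295 CPM in CLP without overlap with ILC2P (adjusted p = 0.000126 and 3.71e-07). Their log2 differences were -9.75 and -4.22 in batch 1 and -4.53 and -4.22 in batch 2. Il12a, a subunit of IL-12, had no count in ILC2P and ran from 66.1 to 299 CPM in CLP (at least 25.9-fold lower, adjusted p = 0.000111). Bst2, a surface protein of plasmacytoid dendritic cells that interferon also induces, fell with an adjusted p of 0.0463, which 10 single libraries could end (0.0558 to 0.0992): CLP replicates 1, 5, 6, 7 and 8 and ILC2P replicates 3, 4, 6, 7 and 8. In CLP it split by batch, at 352 to 551 CPM in batch 1 and 41.7 to 109 CPM in batch 2. Its log2 difference was -4.43 in batch 1 alone (adjusted p = 2.64e-05 in edgeR) and -0.90 in batch 2 alone (adjusted p = 0.72).

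Outside the lists, Mpeg1 and Ly86, both known from myeloid and B cells, had no count in ILC2P and ran at 262 to 1797 and 18.3 to 1054 CPM in CLP, at least 169-fold and 95.7-fold lower (adjusted p = 4.96e-15 and 6.38e-09). Unlike Irf8, Ly86 was highest in batch 2, at 426 to 1054 CPM against at most 187 CPM in batch 1, where its adjusted p was 0.0507. Xcr1, a chemokine receptor of cross-presenting dendritic cells, rose through 3 ILC2P libraries, at 61.8, 596 and 621 CPM, and was at 0 in the other 5 and in CLP (at least 59.5-fold higher, adjusted p = 0.000446). Of 9 genes of MHC class II presentation, H2-Ob and H2-DMa fell (22.2%, against 8% of all genes; log2 differences -4.78 and -6.06, adjusted p = 9.43e-06 and 0.000798).

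**Figure D5:**
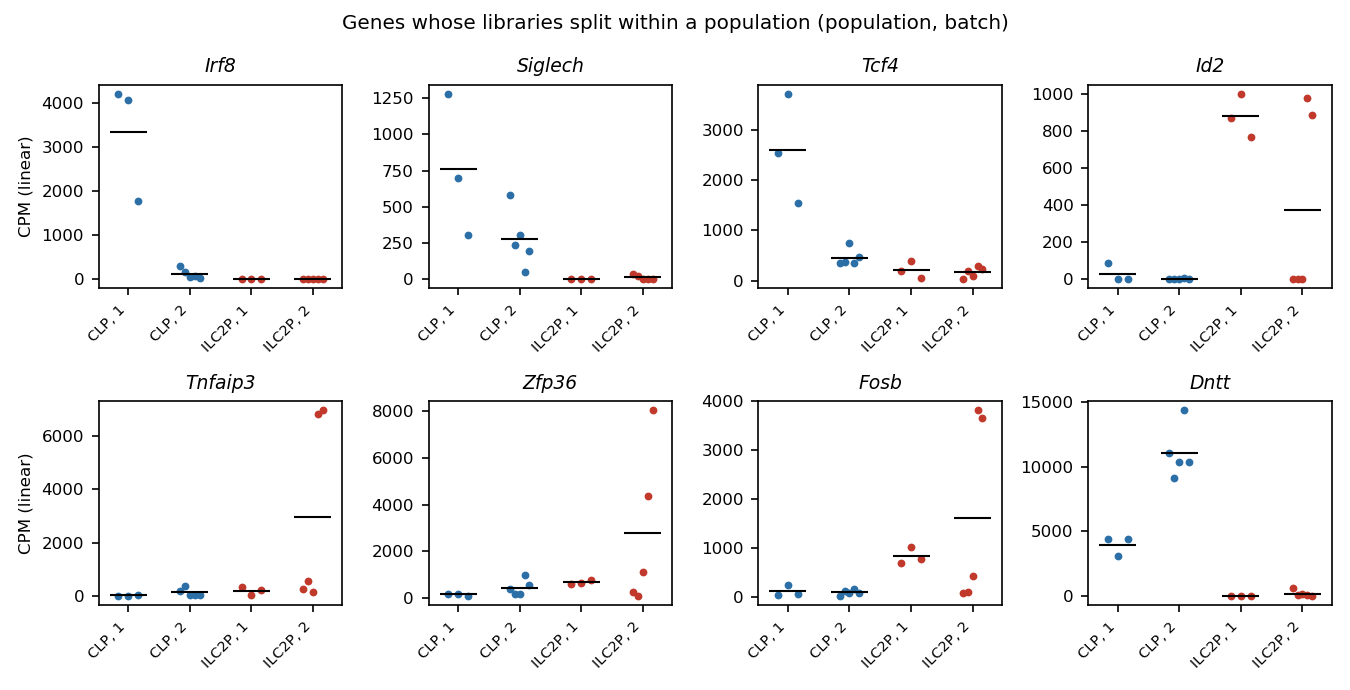
CPM on a linear scale of 8 genes whose libraries split within a population, by population and batch, with 1 point per library and a bar at the mean. Irf8 and Tcf4 are high in the 3 CLP libraries of batch 1, Id2 is at 0 in 3 of the 5 ILC2P libraries of batch 2, and Tnfaip3, Zfp36 and Fosb have their highest 2 values in ILC2P replicates 4 and 5.

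Cell cycle genes were lower in ILC2P in 16 of 38 tested (42.1%, against 8% of all genes), with a median log2 difference of -2.45. With the size factors of DESeq2, 11 were lower (against 5.54% of all genes), and without ILC2P replicate 1, 13 (against 6.36%). Top2a, a topoisomerase of dividing cells, ran at 351, 1616 and 2469 CPM in CLP and at 0, 31.6 and 240 CPM in ILC2P without overlap (log2 difference -4.52, SE 0.74, adjusted p = 5.26e-05). Mcm7 and Mcm6, subunits of the replicative helicase, were at 226 to 892 and 452 to 944 CPM in CLP and at most 44.5 and 267 CPM in ILC2P (log2 differences -6.27 and -3.28, adjusted p = 1.27e-10 and 3.41e-05). Stmn1, which destabilizes microtubules, and Mcm3 fell too (log2 differences -5.27 and -4.50, adjusted p = 4.53e-06 and 4.09e-05). The whole list held 0.334 to 1.04% of the counts of a CLP library and 0.0704 to 0.267% in ILC2P, so the sums did not overlap.

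Immediate early and heat shock genes, which respond within minutes to stimulation or handling, were higher in 6 of 23 tested (26.1%, against 3.46% of all genes) and lower in 2 (8.7%, near the 8% of all genes). Nfkbia, an inhibitor of NF-κB, ran at 326, 924 and 2705 CPM in ILC2P and at 55.1, 185 and 383 CPM in CLP (log2 difference 2.76, SE 0.50, adjusted p = 2.83e-05). Junb was at 133 to 1942 CPM against 17 to 376 CPM (log2 difference 3.03, SE 0.57, adjusted p = 9.48e-05). Tnfaip3 and Fosb, a deubiquitinase of NF-κB signalling and an AP-1 subunit, reached 6834 and 6980 CPM and 3813 and 3660 CPM in ILC2P replicates 4 and 5. In the other 6 ILC2P libraries they were at 24.7 to 539 CPM and 69.1 to 1014 CPM. Their log2 differences were 4.68 and 3.56 (SE 1.00 and 0.89, adjusted p = 0.00167 and 0.00799). Dusp2, a phosphatase of MAP kinases, fell, from 263 to 936 CPM in CLP to counts in 2 ILC2P libraries (log2 difference -3.91, SE 0.89, adjusted p = 0.0023). Hsp90aa1, a chaperone, fell with an adjusted p of 0.0336, which 6 single libraries could end (0.0527 to 0.0677): CLP replicates 3 and 4 and ILC2P replicates 1, 2, 3 and 5. Dusp1 and Zfp36 were called higher as well (adjusted p = 0.0412 and 0.0457), but leaving out 1 library ended the call in 9 and 12 of 16 cases. For Dusp1 these were CLP replicates 2 to 5, 7 and 8 and ILC2P replicates 5 to 7, and for Zfp36 CLP replicates 1 to 3 and 5 to 8 and ILC2P replicates 4 to 8, with an adjusted p of at most 0.17 and 0.125. The list held 0.34 to 4.37% of the counts of an ILC2P library, highest in replicates 4 and 5, and 0.312 to 1.02% in CLP. The part of handling in these calls was not tested.

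Among the genes with the largest differences that stood at 50 CPM or more, Slc7a8, an amino acid transporter, ran at 107, 287 and 863 CPM in ILC2P and had no count in CLP (at least 128-fold higher, adjusted p = 2.69e-07). Inpp4b, a lipid phosphatase, was detected in all ILC2P libraries, from 26.7 to 620 CPM, and in no CLP library (at least 97.7-fold higher, adjusted p = 2.29e-06). Ptgir, the prostacyclin receptor, had counts in 7 ILC2P libraries and none in CLP (at least 77.8-fold higher, adjusted p = 6.33e-06). Pard3, a polarity protein, was at 0 in 3 ILC2P libraries and at 1707 CPM in replicate 3 (at least 166-fold higher, adjusted p = 0.000377, but 0.205 by DESeq2). Camk4, a calcium-dependent kinase, and Slc6a13, a transporter, had counts in 6 ILC2P libraries each and none in CLP (at least 80.1-fold and 68.1-fold higher, adjusted p = 7.26e-07 and 0.000133).

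In the other direction, Macroh2a1, which encodes the histone variant macroH2A1, was detected in all 16 libraries. It ran at 3012, 5171 and 6811 CPM in CLP and at 148, 377 and 760 CPM in ILC2P, without overlap and with a small error (log2 difference -3.69, SE 0.33, adjusted p = 1.41e-16). Its mean fell between CLP carrying α4β7, at 4308 ± 297 CPM, and CILP, at 827 ± 284 CPM. Tsc22d1, Arpp21, Sh2d5, Tspan2 and Trafd1 had counts in all CLP libraries and none in ILC2P, at least 60-fold, 52.5-fold, 55.6-fold, 29.7-fold and 47.8-fold lower. Grn, the progranulin gene, and Vasn were also at 0 in ILC2P, with counts in 7 and 6 CLP libraries (at least 30.7-fold and 28-fold lower).

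In edgeR the calls in general cell functions were nearer to the share of all genes. Of 83 cytosolic ribosomal protein genes, 1 was higher and 5 lower (1.2% and 6.02%, against 3.46% and 8% of all genes), with a median log2 difference of -0.45, close to that of all genes. The higher one, Rpl7a, has many copies in the genome and rested on ILC2P replicate 3, at 1627 CPM (log2 difference -0.46 without it, adjusted p = 0.836), and was also lost without CLP replicate 3 (adjusted p = 0.0574). Rplp0, Rpl31 and Rps26, which were called lower, split by batch in both populations. Rplp0 was at most 50.9 CPM in the 6 batch 1 libraries and ran from 507 to 5299 CPM in those of batch 2. Rps26 was at 1435 CPM or more in batch 1 and at most 711 CPM in batch 2. The call of Rplp0 was lost without ILC2P replicate 3 (adjusted p = 0.0515), and that of Rps26 without CLP replicate 2, 4 or 5 or ILC2P replicate 2, 3 or 7 (0.0512 to 0.0881). Rps27l, a relative of Rps27, was lower in ILC2P with a log2 difference of -2.24 (adjusted p = 0.0138).

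Of 75 nuclear genes of oxidative phosphorylation, 7 were lower (9.33%, near the 8% of all genes), with a median of -0.79 against -0.43 over all genes. At an unadjusted p under 0.05 in edgeR, 20 were lower, against 2103 of all 10972 genes. A positive log2 difference was seen in 13 of the 75, against 4139 of all genes, and limma-voom called 16 lower (against 8.08% of all genes). In edgeR 0 were higher, none at an unadjusted p under 0.05, and DESeq2 called 1 higher. Atp5b, a subunit of the ATP synthase, was at 543 to 2084 CPM in CLP and 173 to 645 CPM in ILC2P (log2 difference -1.45, SE 0.37, adjusted p = 0.00488). Its log2 difference was -2.36 in batch 2 alone (adjusted p = 0.00312 in edgeR) and -0.25 in batch 1 alone (adjusted p = 0.832). The test for a population difference that differed between the batches did not pass for Atp5b or any other gene. Cox7b and Cox4i1, subunits of cytochrome oxidase, had log2 differences of -1.54 and -1.64 (adjusted p = 0.00735 and 0.00921). Atp5md, another subunit of the ATP synthase, was at 614 to 1756 CPM in the CLP libraries of batch 2 and at most 8.48 CPM in those of batch 1 (log2 difference -3.32, adjusted p = 0.000185). Mitochondrially encoded transcripts gave 0 calls by edgeR (14 tested, 2 at an unadjusted p under 0.05), DESeq2 or limma-voom. Without ILC2P replicate 1, the library rich in them, edgeR called 1 of 14 lower (against 6.36% of all genes). Their median log2 difference was then -0.68, against -0.49 with it. Of 18 glycolysis genes, 1 was higher and 1 lower (5.56% each, against 3.46% and 8% of all genes). Tpi1 fell (log2 difference -2.88, adjusted p = 0.0152, and 0.0608 without CLP replicate 5). Hk3, a hexokinase, was called higher through 1 library, ILC2P replicate 4 at 763 CPM, and had an adjusted p of 1 without it.

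Of 10 Bcl2 family genes, 1 was higher and 1 lower (10% each, against 3.46% and 8% of all genes). Bcl2l1, which encodes the survival protein BCL-XL, rose from at most 22 CPM in CLP to 0 to 297 CPM in ILC2P (log2 difference 4.27, SE 1.24, adjusted p = 0.00945). Bak1, a pro-apoptotic member, fell with an adjusted p of 0.0339 that 4 single libraries could end (0.0504 to 0.114): CLP replicate 2 and ILC2P replicates 2, 7 and 8. Of 22 interferon response genes, 1 rose and 4 fell (4.55% and 18.2%, against 3.46% and 8% of all genes). Zbp1, a sensor of nucleic acids, had counts in 5 ILC2P libraries, up to 251 CPM, and 1 count in CLP (adjusted p = 0.0094). Ifi27l2a fell from 16.3 to 606 CPM in CLP to a single count in ILC2P (adjusted p = 7.09e-05), and Ifitm1 and Oasl1 were at 0 in ILC2P (at least 5.45-fold and 6.27-fold lower, adjusted p = 0.0223 and 0.0231). The call of Oasl1 rested on CLP replicate 4, at 180 CPM (adjusted p = 0.0673 without it).

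Some of the most abundant transcripts were not called by edgeR. Malat1, a nuclear long noncoding RNA, had a log2 difference of 1.00 (SE 0.37, adjusted p = 0.0685), and Actb, which encodes beta actin, -0.39 (SE 0.24, adjusted p = 0.313). The mitochondrial ribosomal RNAs mt-Rnr1 and mt-Rnr2 had log2 differences of 0.03 and -0.25 (adjusted p = 1 and 0.8). Rpl37rt, a retrotransposed copy of a ribosomal protein gene whose reads may belong to its parent, was called lower (log2 difference -1.13, SE 0.29, adjusted p = 0.00565), at 107 to 501 CPM in batch 1 and 1416 to 11017 CPM in batch 2 over both populations.

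Markers of cells that a sort might let through were mostly near 0. Of 14 myeloid markers tested, 0 were higher in edgeR, 7 were at an unadjusted p under 0.05, and DESeq2 and limma-voom each called 1 higher. The 1 member that was lower (7.14%, near the 8% of all genes) was Mpo, at 0 in ILC2P and 7.67 to 279 CPM in CLP (at least 14.1-fold lower, adjusted p = 0.00154). Their median log2 difference was 2.14, and 0.05 without ILC2P replicate 1. Myeloid markers held 0.538% of the counts of ILC2P replicate 1, 0.279% in replicate 6 and at most 0.0161% in the other 6, against 0.00442 to 0.0264% in CLP. Of 13 erythroid and megakaryocyte, 6 mast cell, basophil and eosinophil, and 8 plasma and mature B cell markers, edgeR called 0. At an unadjusted p under 0.05 the counts were 0, 2 and 1, DESeq2 called 0 of 9, 0 of 3 and 1 of 6, and limma-voom called 0, 2 and 0. Erythroid markers reached 0.129% in ILC2P replicate 1 and 0.0553% in CLP, with Hba-a2, a globin gene that has a near-identical copy, at 414 CPM in that ILC2P library and 271 CPM in CLP replicate 6, and Car2, a carbonic anhydrase, at no more than 240 CPM in either population. The mast cell markers reached 0.0137% in ILC2P and 0.00162% in CLP, and plasma cell markers 0.0362% and 0.0146%. Among the mast cell and eosinophil markers, Prg2 reached 119 CPM in ILC2P and 11.9 CPM in CLP (adjusted p = 0.0657) and Cpa3 reached 37.1 CPM in ILC2P with no count in CLP (adjusted p = 0.0988). Igha and Jchain, genes of plasma cells, both reached 104 CPM in ILC2P replicate 1 and at most 25.1 CPM in CLP. The Y-linked genes Ddx3y and Eif2s3y had counts in all 16 libraries and were not called (adjusted p = 1 and 0.626). Of 5 sex-linked genes tested, edgeR and limma-voom called 0 and DESeq2 called 1, and 1 had an unadjusted p under 0.05 in edgeR. Their part in the results above was not tested.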

How the data were processed

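Libraries were made by CEL-seq from pools of 100 sorted bone marrow cells. The deposited files are 2 tables of raw read counts per gene, 1 for each batch, with 27179 genes each; per the submitters' processing notes the tools were CASAVA 1.8.2, featureCounts, limma and edgeR (3.8.2 and 3.22.0) on mm10. The aligner, the strand setting and any use of molecular identifiers are not given in the sources used here. Per the file headers, reads of batch 1 were trimmed, a step that those of batch 2 do not record. Entrez IDs were paired with RefSeq symbols for 25275 genes (92.99%).

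The 2 technical repeats of CLP replicate 2 were summed with it (185147 counts in all). Technical repeats of a CILP library were summed in the same way. Genes were kept with edgeR's filterByExpr (minimum count 10, total 15), leaving 10972 of both tables. Counts were scaled by TMM and fitted with edgeR 4.0.16 (R 4.3.3) over the 47 libraries of the wild-type, Id2-/- and TCF7-/- groups, with batch as a covariate. Left out of this model were the Nfil groups, the control wells and a wild-type CILP library that the labels mark as an outlier. The quasi-likelihood test with Benjamini-Hochberg adjustment over all genes gave the calls (adjusted p under 0.05; common biological coefficient of variation 109.7%, 35 residual degrees of freedom). Of the 10972 genes, 400 had no count in either population and passed through others. Each SE was derived from the test, as the size of the log2 difference before shrinkage divided by the square root of the F statistic. The log2 difference printed beside it is edgeR's shrunken value. The code was tested on simulated data. The other analyses used DESeq2 1.42.0, TMM replaced by the DESeq2 size factors, limma-voom (limma 3.58.1) with quality weights, other filters, other samples, single batches, and each of the 16 libraries left out.

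Named genes were all key regulators and population markers; from each list the 4 higher and 4 lower genes, at most, whose adjusted p was smallest, or the 2 of highest mean level where none was called; up to 15 per direction with the largest fitted difference at 50 CPM or more and the same sign in both batches; and the 8 genes of highest mean level in each population. A few genes that meet this rule are not reported here, and further list members were named after their values were seen. The members and lists were chosen with earlier results of these data known.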

Additional observations from a re-analysis of the deposited data

Results flagged for a closer look

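In 152 groups of 8 libraries (named genes with a mean of at least 50 CPM in a population), the highest or lowest library was set against the rest by its gap to the nearest library, divided by the whole range (Dixon's test for 8 values). In 26 of them 1 library stood apart. Chance flags about 1 in 20 groups where values are normally distributed. The rate for skewed counts such as these was not tested, and many of these genes rest on few counts.

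In ILC2P, replicate 3 stood apart for 5 genes. It held 2320 CPM of Cxcr6, 2267 CPM of Tnfsf11, 880 CPM of Ikzf3, 1627 CPM of Rpl7a and 267 CPM of Mcm6. Replicate 4 held 763 CPM of Hk3 and 432 CPM of Atp5md. Replicate 5 held 1897 CPM of Klrg1 and 474 CPM of Cd226, and replicate 2 held 338 CPM of Tnfsf14 and 251 CPM of Zbp1. Replicate 1 stood apart with 587 CPM of Dntt and 95634 CPM of mt-Rnr2, a mitochondrial ribosomal RNA. Replicate 6 held 99215 CPM of a gene model without a matched symbol (Entrez_100861531), and replicate 7 held 730 CPM of Slc6a13.

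In CLP, replicate 4 stood apart for 4 genes. It held 588 CPM of Gata3, 237 CPM of Ebf1, 376 CPM of Junb and 1699 CPM of Trafd1. Replicate 2 held 2159 CPM of Myb and 1842 CPM of Xrcc6, and replicate 3 held 798 CPM of H2-DMa and 279 CPM of Mpo. Replicate 1 held 1986 CPM of Sox4, replicate 7 held 7749 CPM of Actb and replicate 8 held 1113 CPM of Stmn1.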

How the results depend on the processing

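Against 380 higher and 878 lower genes, the counts with higher first were 652 and 887 with limma-voom, 395 and 614 with DESeq2, 492 and 608 with the size factors of DESeq2, 387 and 768 with no filter, 195 and 603 with the stricter filter, 424 and 851 with no batch term, 400 and 839 with the technical repeats left out and 288 and 552 without ILC2P replicates 1 and 3. The stricter filter tested fewer genes. They were 127 and 319 in batch 1 alone, 124 and 247 in batch 2 alone and 66 and 91 with only the 16 compared libraries, all with fewer genes or libraries. Leaving out 1 library gave 299 to 366 higher and 693 to 822 lower genes. Of the called genes that DESeq2 tested, 963 of 963 kept their sign and 765 remained called, and 1035 of 1055 and 1012 of 1017 kept it in batches 1 and 2. Some key regulators without a call changed sign: Tox was at -1.49 in batch 2 and between -0.40 and 0.87 with 1 library left out (below 0 without ILC2P replicate 6 or 8 or CLP replicate 7), Nfil3 was at 0.19 in limma-voom and at 0 in batch 1, and Rora was at 0 in batch 2 and between -0.03 (without ILC2P replicate 6) and 3.08 with 1 library left out. Tcf7 missed the threshold in batches 1 and 2 (adjusted p = 0.211 and 0.165), Ets1 with no filter (0.0536) and in both batches (0.101 and 0.156), and Il2rg in batch 2 (0.09). The cause was not tested. Zbtb16 passed in limma-voom (0.0426). Il7r passed in 8 alternatives, with log2 differences of 1.20 to 1.49. The depth of ILC2P limits what can be said of genes at 0 there. No paired analysis was possible because the replicates were numbered in accession order and no label pairs them.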
